A study of Gallus gallus with 8 samples.

Results

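Semaphorins, Slits, netrins and draxin are ligands that steer growing axons and dendrites, and plexins, neuropilins, Robos, UNC5 proteins and neogenin are receptors for them. Contactins and the L1 family are adhesion proteins of the axon surface, and FLRT proteins bind UNC5 receptors. Genes of these families were picked by symbol. The families hold 51 genes among the 16700 rows of the table, of which 14839 had at least 1 read. There were 6 secreted semaphorins, 10 membrane-bound semaphorins, 2 neuropilins, 7 plexins, 2 Slits, 4 Robos, 3 netrins, 2 netrin-Gs, 4 UNC5 receptors, neogenin, draxin, 2 FLRT genes, 4 contactins and 3 genes of the L1 family. The table held no row under the symbols DCC, SLIT1, L1CAM, CNTN4 or CNTN5, so these genes could not be analysed here. Sequenced were whole chicken retinas of embryonic day (E) 8, of E16 and of E18, as well as whole corneas of E18, with 2 libraries per group and 8 in all. Embryos were untreated Cobb/Hubbard F1 hybrids, the pigmented epithelium had been peeled from the retinas, and no cell type was enriched. The study calls the libraries of a group biological duplicates and lists them under different chickens, and p-values rest on the spread between these pairs of libraries. The same chicken labels recur in every group. Whether E18 retina and cornea share embryos, and whether tissue was pooled, is not stated.

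Class 3 semaphorins are secreted and mostly signal through a complex of a neuropilin and a class A plexin, while SEMA3E binds PLXND1 directly. Class 4 to 7 semaphorins are tethered to the membrane and bind plexins themselves. Slits repel axons through Robo receptors, and netrins attract through DCC and neogenin or repel through UNC5 receptors. In the retina these cues guide ganglion cell axons to the optic nerve head and set the layers in which inner retinal neurites meet. In the cornea they act on sensory axons that grow in from the trigeminal ganglion.

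Values are normalized counts, which are the reads on a gene divided by the DESeq2 size factor of the library. They compare 1 gene between libraries and not different genes, since they were not divided by length. The libraries held 15662779 to 45670254 reads on genes, and 3 reads corresponded to 1.76 to 5.53 normalized counts. All 51 genes passed the filter on low counts, and 44 of them had at least 10 reads in every library. NTN3 and ROBO3 passed through their corneal libraries alone, the group in which they were high, so no test of them is given by itself. Counts, shares and medians over the 51 genes still include them. Marker genes separated the tissues as labelled. The summed normalized counts of 4 photoreceptor genes were 36266 and 36249 in E18 retina against 70.1 and 66.3 in E18 cornea, and those of 8 corneal genes were 772 and 744 in E18 retina against 1285620 and 1311320 in E18 cornea. Replicates differed in a few respects that touch the results. ATOH7, a factor of ganglion cell precursors, had 10559.8 and 2483 normalized counts in E8 replicates 1 and 2. The other ganglion cell markers differed far less there, with 4006 and 4046 for ISL1, 2857 and 3017 for RBPMS and 5256 and 4331 for NEFM. Of the 51 guidance genes, 38 (74.5%) were higher in E8 replicate 2, against 47.6% of all genes with at least 80 reads over the 8 libraries. At E18 the skew ran the other way, with 14 guidance genes (27.5%) higher in replicate 2, against 51.5% of those genes. The shares higher in replicate 2 were 39.2% at E16, against 46.1%, and 56.9% in cornea, against 50.2%. The part of these differences in the results was not tested, and values without single libraries are given where they matter. In cornea replicates 1 and 2, the myelin gene MBP had 1468 and 6239 normalized counts, and SOX10, a factor of myelinating glia, had 542 and 427. Whole tissue was measured, so fewer cells of a type and less RNA per cell cannot be told apart.

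Between E16 and E8 retina, 36 of the 51 guidance genes changed, and 28 of these rose while 8 fell. A gene counts as called where limma gave it an adjusted p under 0.05, with the adjustment of Benjamini and Hochberg (the Benjamini-Hochberg procedure) made over all 13194 genes tested. By this rule 64.4% of all genes tested were called, 34.1% as higher and 30.3% as lower at E16, whereas 70.6% of the guidance genes were called, 54.9% as higher and 15.7% as lower. Their median log2 fold change was 0.82, against 0.04 over all genes tested. Counting only calls that moved at least 2-fold, there were 26 guidance genes, against 40.3% of all genes. The libraries of the stages did not overlap for 43 guidance genes (84.3%), which is near the 83.1% of all genes. Between E18 and E8 retina 39 genes (76.5%) were called, 29 (56.9%) as higher and 10 (19.6%) as lower at E18. The background there was 66.4% of all genes, 35.0% as higher and 31.4% as lower, and the median log2 fold change was 1.03 for the guidance genes and 0.04 for all genes. With a fold change of at least 2 there were 30 calls (58.8%), against 42.4% of all genes, and 45 genes (88.2%) had no overlap, against 83.9% of all genes. These comparisons share the E8 libraries, and those of E18 retina with other groups share the E18 libraries.

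Fewer genes moved between E18 and E16 retina. Of the 51 genes, 7 rose and 4 fell, which is 21.6% against a background of 18.6% of all genes called, so the share was near that of the whole table. The calls were 13.7% higher and 7.84% lower, against 10.7% and 7.87% of all genes. With a fold change of at least 2 there were 6 calls (11.8%), against 6.16% of all genes. No overlap between E18 and E16 was seen for 42 guidance genes (82.4%), against 74.0% of all genes. The median log2 fold change was 0.30 for the guidance genes and 0.02 for all genes. The share of all genes called with 1 library left out is not given here. Fold changes moved less for some genes than for others. Without E16 replicate 1, NTN4 went from 1.06 to 0.99, and without E18 replicate 1, SEMA4B went from -0.87 to -0.49. This count of calls changed with single libraries left out, which leaves 1 library in a group. It was 0 without E16 replicate 1, where 15 genes still had an unadjusted p under 0.05 in limma, 3 without E16 replicate 2, 1 without E18 replicate 1 and 5 without E18 replicate 2. Each of the 11 calls was lost without at least 1 of these 4 libraries, with adjusted p of 0.0509 to 0.248. A fit of only the 4 libraries compared gave 28 calls. On the recovered reads edgeR called 11 genes and DESeq2 called 14.

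Between E18 retina and E18 cornea, 42 of the 51 genes (82.4%) were called, with 27 (52.9%) higher and 15 (29.4%) lower in retina. The called, lower, at least 2-fold and non-overlapping counts of this comparison include NTN3 and ROBO3. Their entry through cornea alone favoured such calls, so they are not read as results. The background was 71.4% of all genes, 34.5% as higher and 36.9% as lower in retina, and the median log2 fold change was 0.82 for the guidance genes and -0.06 for all genes. With a fold change of at least 2 there were 39 calls (76.5%), against 49.8% of all genes, and 48 genes (94.1%) had no overlap, against 87.2% of all genes. In absolute size the median difference was 1.83 on the log2 scale for the guidance genes and 1.02 for all genes. PLXNB2, SEMA3D and SEMA4D were called in none of the 4 comparisons. CNTN6, NTN4, NTNG1 and SEMA3E were called in all 4. The shares of all genes called in none or in all 4 were not counted.

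**Figure D1:**
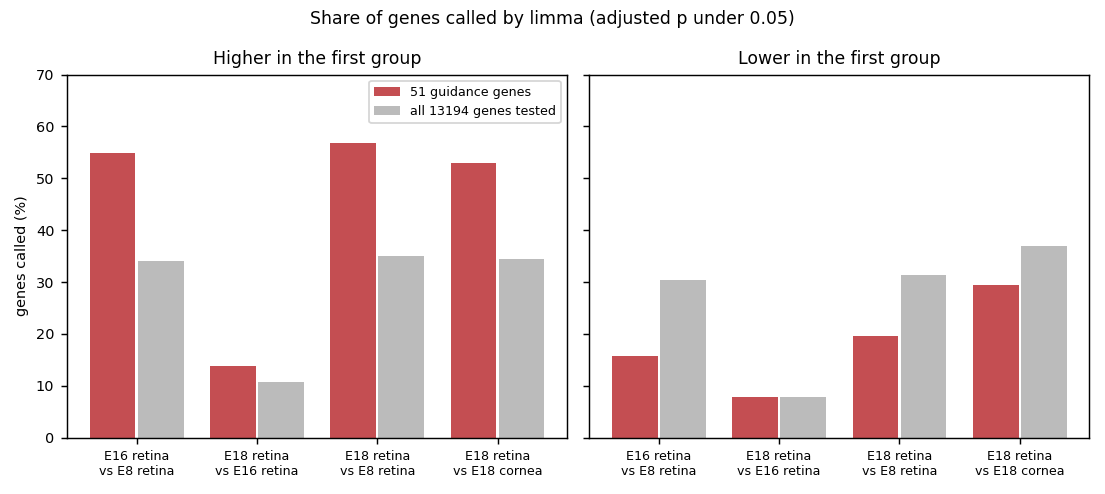
Share of genes called higher and lower (percent on the vertical axis) for the 51 guidance genes and for all 13194 genes tested, in each of the 4 comparisons. The guidance genes had 54.9% called higher between E16 and E8 retina, against 34.1% of all genes, and 7.84% called lower between E18 and E16, against 7.87% of all genes. The shares include NTN3 and ROBO3, which passed the filter through cornea alone.

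**Figure D2:**
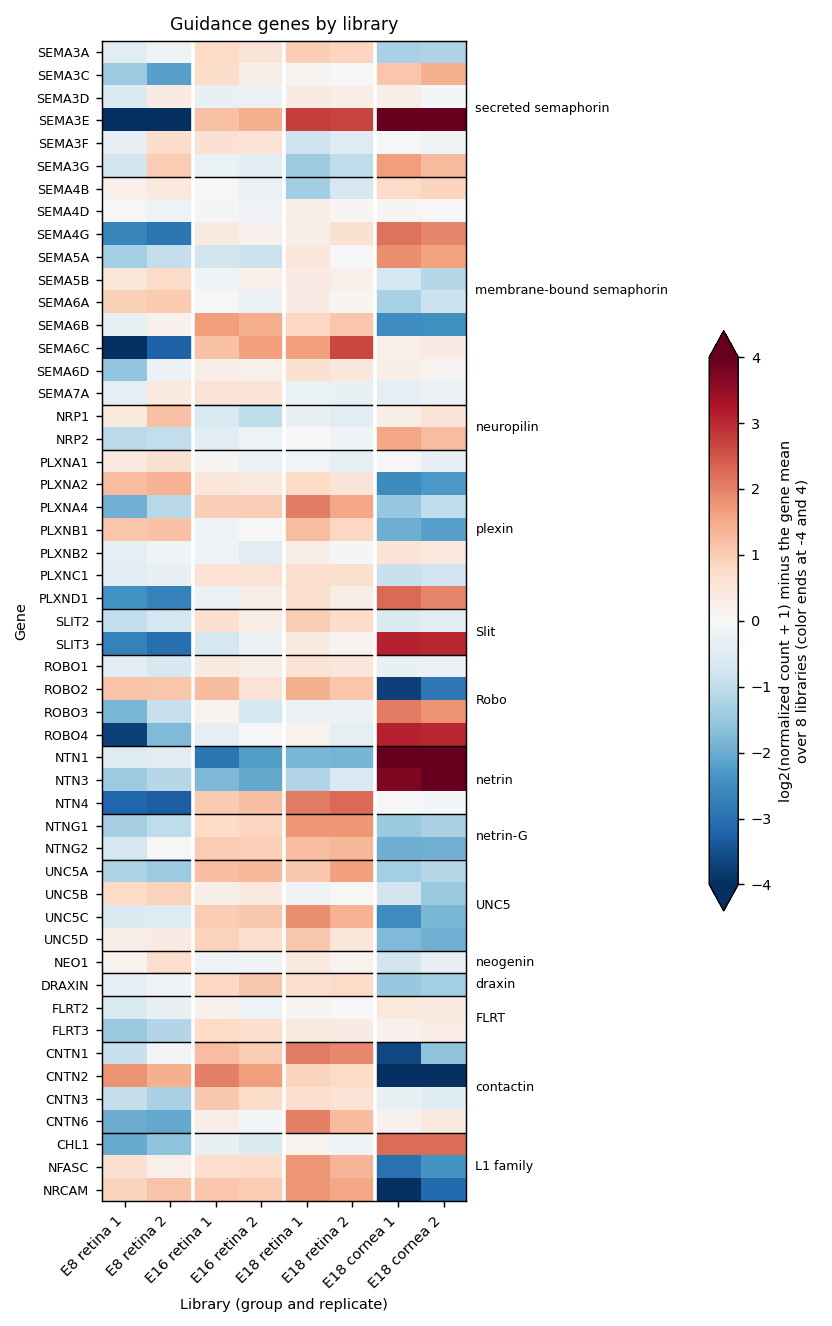
Level of each of the 51 guidance genes in the 8 libraries, as log2(normalized count + 1) minus the mean of the gene over all libraries, grouped by family, with colours ending at 4 below and above the mean. Replicates of a group share their colours for most genes, and the stripe of E8 retina stands apart from the later stages in SEMA3E, SEMA6C and NTN4.

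Secreted semaphorins held the gene with the steepest change of the set. SEMA3E, a ligand of PLXND1, had 0 and 0.980 normalized counts at E8, 946 and 1121 at E16, 2894 and 2750.0 at E18 and 6822 and 8698 in cornea. It was at 0 and 1 reads in the E8 libraries and high in all others, highest in cornea, with no overlap between any groups. The reads gave a ratio of 2848 for E16 over E8 (exact 95% interval 511 to 1.126e+05) and of 7648 for E18 over E8 (1372 to 3.021e+05), intervals that cover counting error only. In limma the adjusted p was 7.75e-08 for E16 against E8 and 3.32e-08 for E18 against E8. SEMA3E was also higher at E18 than at E16 (log2 fold change 1.45 ± 0.30, adjusted p = 0.0153) and lower in E18 retina than in cornea (-1.45 ± 0.30, adjusted p = 0.00222), where values are on the log2(normalized count + 1) scale with the SE of the fit, as in the rest of the text. This scale understates the change of low genes. For SEMA3E, the call between E18 and E16 was lost without any 1 of the E16 and E18 retinal libraries, at values of 1.33 to 1.58.

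SEMA3A, the founding repellent of the class, had 1515 and 1800.3 normalized counts at E8, 3619 and 2997 at E16, 4155 and 3799 at E18 and 847 and 876 in cornea. The E8 libraries were the lowest of the retina, and all retinal libraries lay above the corneal ones. The gene rose at E16 relative to E8 (1.00 ± 0.14, adjusted p = 0.000263) and was higher in E18 retina than in cornea (2.20 ± 0.14, adjusted p = 1.20e-06). SEMA3C, which signals through neuropilins, had 337 and 207 normalized counts at E8, 1564 and 1101 at E16, 1014 and 953 at E18 and 1996 and 2485 in cornea. It was thus lowest at E8 and highest in cornea, with log2 differences of 2.31 ± 0.25, adjusted p = 6.76e-05, for E16 minus E8 and -1.18 ± 0.25, adjusted p = 0.00267, for E18 retina minus cornea.

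SEMA3F, a repellent that acts through NRP2, had 1244 and 2618 normalized counts at E8, 2384 and 2261 at E16, 872 and 1093 at E18 and 1535 and 1359 in cornea. Its E8 replicates lay on either side of the E16 values, and both E18 libraries were below all others of the retina. The fall at E18 relative to E16 was -1.25 ± 0.29, adjusted p = 0.0235. Its call was lost without any 1 of the E16, E18 retina and cornea libraries, at values of -1.09 to -1.41. For E18 against E8 the difference was -0.89 ± 0.29, adjusted p = 0.0258, and -0.35 with an adjusted p of 0.111 without E8 replicate 2, a call that was also lost without E18 replicate 1 (adjusted p = 0.137) and without either cornea library (adjusted p of 0.0625 and 0.0593). SEMA3G, an NRP2 ligand known from mammalian endothelium, had 347 and 1183 normalized counts at E8, 485 and 432 at E16, 213 and 294 at E18 and 1898 and 1413 in cornea. E8 replicate 2 stood far above replicate 1, and both corneal libraries were above every retinal one. SEMA3G was lower in E18 retina than in cornea (-2.71 ± 0.47, adjusted p = 0.000815), while the fall at E18 relative to E8 (-1.35 ± 0.47, adjusted p = 0.032) became -2.24 without E8 replicate 1 and, with E8 replicate 2 left out, -0.47 with an adjusted p of 0.157, and was no longer called without any 1 of the 6 libraries of the other groups (adjusted p of 0.0523 to 0.149). SEMA3D ranged from 379 to 698 normalized counts over the 8 libraries, with both of these extremes in the E8 replicates, and was not called.

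Among the 10 membrane-bound semaphorins 5 rose and 2 fell at E16 relative to E8, where 34.1% and 30.3% of all genes did so. SEMA6C, a class 6 semaphorin, had 1.17 and 3.92 normalized counts at E8, 103 and 141 at E16, 142 and 292 at E18 and 51.7 and 56.5 in cornea. It was close to the limit of detection at E8, and E18 replicate 2 was the highest library. The rise at E16 over E8 was 5.22 ± 0.48, adjusted p = 2.56e-05, and 4.63 and 5.81 without E8 replicate 1 or 2. Its excess in E18 retina over cornea was 1.89 ± 0.48, adjusted p = 0.00677, which became 1.37 with an adjusted p of 0.0674 without E18 replicate 2.

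SEMA4G, of class 4, had 49.8 and 41.2 normalized counts at E8, 405 and 349.7 at E16, 375 and 482 at E18 and 1422 and 1216 in cornea. Its groups were well apart between E8, the later retina and cornea, with log2 differences of 3.03 ± 0.21, adjusted p = 5.25e-06, for E16 minus E8 and -1.63 ± 0.21, adjusted p = 0.000128, for E18 retina minus cornea. SEMA6B, which binds class A plexins, had 431 and 592 normalized counts at E8, 1671 and 1426 at E16, 938 and 1136 at E18 and 92.2 and 95.8 in cornea. It was highest at E16 and lowest in cornea, at 1.61 ± 0.20, adjusted p = 0.000134, for E16 minus E8 and 3.44 ± 0.20, adjusted p = 7.68e-07, for E18 retina minus cornea, and the lower E18 level relative to E16 (-0.58 ± 0.20, adjusted p = 0.0748) was not called.

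SEMA6A keeps neurites of the mouse inner plexiform layer in their strata together with PLXNA4 and PLXNA2. It had 1941 and 2079 normalized counts at E8, 999 and 828 at E16, 1258 and 1043 at E18 and 409.5 and 544 in cornea, so E8 was highest and cornea lowest. SEMA6A fell at E16 relative to E8 (-1.14 ± 0.18, adjusted p = 0.00056) and was higher in E18 retina than in cornea (1.28 ± 0.18, adjusted p = 0.000203). The gene lies on chromosome Z, whose 547 genes tested had a median log2 fold change that differed from the median of genes on other chromosomes by -0.63 between E16 and E8, by -0.50 between E18 and E8 and by -0.16 between E18 retina and cornea. The sex of the embryos is not given in the labels, and the part of sex in this result was not tested. HINTW and SPINW of chromosome W were at 0 in all libraries, as was the corneal marker KRT5. These zeros are thus not read as a sign of sex. SEMA4D, a PLXNB1 ligand on the same chromosome, stayed between 1070.2 and 1483 normalized counts in all 8 libraries and was not called.

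SEMA5A and SEMA5B confine inner retinal neurites in mice. SEMA5A had 285 and 378 normalized counts at E8, 433 and 399.5 at E16, 996 and 716 at E18 and 2656 and 2198 in cornea, and was called only in the later interval (1.02 ± 0.21, adjusted p = 0.015, for E18 against E16, and 0.34 ± 0.21, adjusted p = 0.185, not called, for E16 against E8). The difference between these intervals was not tested. The later call was lost without either E16 library or E18 replicate 1, at values of 0.78 to 1.08. SEMA5B had 4934 and 5995 normalized counts at E8, 3148 and 4046 at E16, 4430.3 and 4006 at E18 and 2175 and 1596 in cornea. The retinal stages of SEMA5B lay close together and all retinal libraries lay above the corneal ones. Its fall at E16 relative to E8 (-0.61 ± 0.18, adjusted p = 0.0182) lost the call without E8 replicate 2 (-0.47, adjusted p = 0.113) or E16 replicate 1 (-0.43, adjusted p = 0.144), whereas its excess over cornea was 1.18 ± 0.18, adjusted p = 0.00041. SEMA5A was lower in E18 retina than in cornea (-1.52 ± 0.21, adjusted p = 0.000186), opposite to SEMA5B.

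SEMA6D had 1493 and 3848 normalized counts at E8, 5388 and 5152 at E16, 6815 and 6143 at E18 and 5245 and 4812 in cornea, and was called higher at E16 than at E8 (1.14 ± 0.35, adjusted p = 0.0185). That difference was 0.45 without E8 replicate 1, the lower of the E8 replicates, and 1.82 without E8 replicate 2, and its call was lost without either E16 library (adjusted p of 0.0821 and 0.0705) or without cornea replicate 1 (adjusted p = 0.0529). The rise at E18 over E8 (1.43 ± 0.35, adjusted p = 0.00585) was likewise 0.75 and 2.11 without E8 replicate 1 or 2. SEMA4B had 1351 and 1578 normalized counts at E8, 1178 and 977 at E16, 454 and 762 at E18 and 2018 and 2179 in cornea. E18 retina was lowest and cornea highest, at -0.87 ± 0.23, adjusted p = 0.0342, for E18 minus E16 and -1.83 ± 0.23, adjusted p = 9.71e-05, for E18 retina minus cornea. The first of these became -0.49 without E18 replicate 1, where its call was lost. That call was also lost without any 1 of the E16 and cornea libraries. SEMA7A, a lipid-anchored semaphorin that binds PLXNC1 and integrins, had 1449.5 and 2429 normalized counts at E8, 2807 and 2714 at E16, 1552 and 1504 at E18 and 1439 and 1592 in cornea. Both E16 libraries were above all others. It was the 1 gene called higher at E16 than at E8 (0.56 ± 0.21, adjusted p = 0.0439) and lower at E18 than at E16 (-0.85 ± 0.21, adjusted p = 0.0271). This pattern was called in 2.34% of all genes tested. The first call was lost without E8 replicate 1 (0.18), in edgeR and without any 1 of the 6 libraries of the other groups. The second call was lost without any 1 of the E16, E18 retina and cornea libraries, at values of -0.83 to -0.88.

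**Figure D3:**
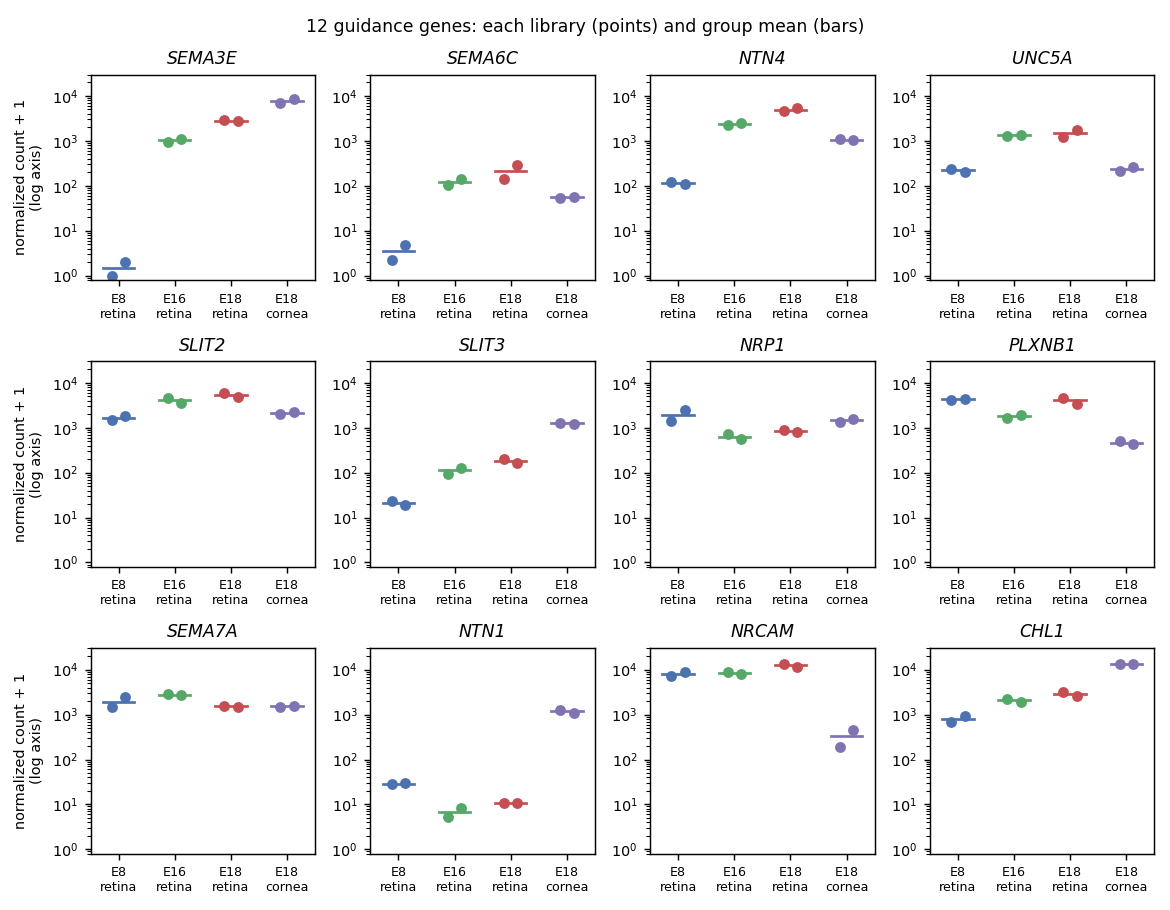
Normalized count + 1 on a log axis for 12 of the guidance genes, with 1 point per library, a bar at the mean of each group and the groups E8, E16 and E18 retina and E18 cornea from left to right. SEMA3E lies at the bottom of the axis at E8 and at 2750.0 or above in both E18 retinal libraries, and NTN1 is at 1104 or above in cornea only.

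Receptor genes for semaphorins split by member. NRP1, which binds SEMA3A and also VEGF, had 1433 and 2491 normalized counts at E8, 716 and 547 at E16, 906 and 819 at E18 and 1317 and 1591 in cornea. The later retinal stages did not overlap with E8, and the cornea fell between E18 and the higher E8 library. NRP1 fell at E16 relative to E8 (-1.59 ± 0.25, adjusted p = 0.000606). It was lower in E18 retina than in cornea (-0.75 ± 0.25, adjusted p = 0.0258), a call that was lost without any 1 of these 4 libraries, with adjusted p of 0.064 to 0.159. NRP2, the receptor of SEMA3F, had 376 and 396 normalized counts at E8, 594 and 678 at E16, 804 and 717 at E18 and 2332 and 1865 in cornea. It moved the other way, with a rise at E16 relative to E8 (0.72 ± 0.16, adjusted p = 0.0039) and was highest in cornea, where the difference of E18 retina minus cornea was -1.46 ± 0.16, adjusted p = 3.97e-05.

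Of the 7 plexins, 3 rose and 3 fell at E16 relative to E8, against 34.1% and 30.3% of all genes. PLXNA4, a receptor for SEMA3A and SEMA6A, had 70.9 and 123 normalized counts at E8, 537 and 538 at E16, 1114 and 796 at E18 and 94.1 and 133 in cornea. E8 retina and cornea were alike in range and the later retina was several times higher. Its log2 differences were 2.51 ± 0.31, adjusted p = 0.000131, for E16 minus E8 and 3.06 ± 0.31, adjusted p = 2.32e-05, for E18 retina minus cornea. PLXND1, the SEMA3E receptor, had 51.6 and 42.1 normalized counts at E8, 242 and 332 at E16, 439 and 342 at E18 and 1371 and 1108 in cornea. Like its ligand it was lowest at E8 and highest in cornea, at 2.58 ± 0.24, adjusted p = 2.90e-05, for E16 minus E8 and -1.67 ± 0.24, adjusted p = 0.000262, for E18 retina minus cornea.

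PLXNB1, a receptor for class 4 semaphorins, was the 1 gene that fell and then rose, a pattern called in 3.84% of all genes tested. The GRCg7b annotation lists this symbol as a synonym of the gene it names PLXNB3, so which plexin was counted is uncertain. PLXNB1 had 4153 and 4400.4 normalized counts at E8, 1687 and 1915 at E16, 4621 and 3463 at E18 and 499.9 and 429 in cornea. E16 was below both other stages, E8 and E18 overlapped, and cornea was lowest. The difference was -1.25 ± 0.16, adjusted p = 0.000163, for E16 minus E8, 1.15 ± 0.16, adjusted p = 0.00475, for E18 minus E16 and -0.10 ± 0.16, adjusted p = 0.617, not called, for E18 minus E8. The call for E18 minus E16 was lost without E16 replicate 1 (1.06) or E18 replicate 1 (0.95).

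PLXNA2, a receptor for class 6 semaphorins, had 9210.4 and 10428 normalized counts at E8, 5512 and 5164 at E16, 6859.7 and 5617 at E18 and 684 and 802 in cornea. All retinal libraries were several times above cornea (3.06 ± 0.14, adjusted p = 2.14e-07), and E16 was lower than E8 (-0.88 ± 0.14, adjusted p = 0.000577). PLXNA1, a co-receptor of neuropilins, had 6930.1 and 8159.8 normalized counts at E8, 5782 and 4482 at E16, 5009 and 4097 at E18 and 5484 and 4283 in cornea. E18 retina and cornea overlapped, and the fall at E16 relative to E8 (-0.56 ± 0.18, adjusted p = 0.0225) became -0.44 with an adjusted p of 0.127 without E8 replicate 2 and -0.38 with an adjusted p of 0.175 without E16 replicate 2. PLXNC1, the SEMA7A receptor, had 757 and 810.5 normalized counts at E8, 1527 and 1536 at E16, 1631 and 1604 at E18 and 555 and 588 in cornea, with rises of 0.97 ± 0.12, adjusted p = 0.00013, for E16 over E8 and 1.499 ± 0.12, adjusted p = 5.02e-06, for E18 retina over cornea. PLXNB2, a plexin found in many tissues, ranged from 1467 to 2929 normalized counts and was not called.

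Both Slit genes rose at E16 relative to E8 and they differed in direction between retina and cornea. SLIT2, a Robo ligand that keeps ganglion cell axons on course in the optic pathway, had 1499 and 1853 normalized counts at E8, 4611 and 3645 at E16, 6018 and 4918 at E18 and 1972 and 2219.7 in cornea. The later retina lay above both E8 and cornea, at 1.30 ± 0.17, adjusted p = 0.000173, for E16 minus E8 and 1.38 ± 0.17, adjusted p = 7.93e-05, for E18 retina minus cornea. SLIT3, a ligand of the same receptors, had 22.3 and 17.6 normalized counts at E8, 92.5 and 129 at E16, 199 and 164 at E18 and 1293 and 1235 in cornea. It was lowest at E8 and highest in cornea, at 2.40 ± 0.26, adjusted p = 6.13e-05, for E16 minus E8 and -2.80 ± 0.26, adjusted p = 1.36e-05, for E18 retina minus cornea.

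Among the Slit receptors, ROBO1 had 1015 and 875 normalized counts at E8, 1734 and 1607 at E16, 1971 and 1839 at E18 and 1090.2 and 1149.8 in cornea. It rose at E16 relative to E8 (0.82 ± 0.13, adjusted p = 0.000466) and was higher in E18 retina than in cornea (0.77 ± 0.13, adjusted p = 0.000537). ROBO2, which with Slits guides ganglion cell axons in mice, had 2859.8 and 2786 normalized counts at E8, 3130.3 and 1963 at E16, 3486 and 2786 at E18 and 97.8 and 178 in cornea. Its retinal stages overlapped and none of their differences was called, whereas the difference of E18 retina minus cornea was 4.55 ± 0.30, adjusted p = 1.53e-06.

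ROBO4, known from mammalian endothelium, had 0 and 2.94 normalized counts at E8, 9.46 and 12.3 at E16, 13.8 and 9.09 at E18 and 113 and 108 in cornea. It rested on few reads in retina, 3 at E8 and 24 at E16, which gave a ratio of 10.03 for E16 over E8 (exact 95% interval 3.05 to 52.0, adjusted p = 0.00545 in limma). The fitted log2 fold change was 2.57 with all libraries, and 1.58 and 3.56 without E8 replicate 1 or 2. ROBO4 was lower in E18 retina than in cornea (-3.19 ± 0.61, adjusted p = 0.00134). Of 5 endothelial markers, 3 were lower and 2 higher in E18 retina than in cornea. CDH5 had 12.5 and 0.757 normalized counts in E18 retina against 1759.9 and 1610.4 in cornea, TEK had 13.8 and 4.54 against 566 and 512 and VWF had 22.6 and 13.6 against 804 and 859. By contrast KDR had 7396 and 6614 normalized counts in E18 retina against 448 and 367 in cornea and ESAM had 599 and 724 against 148 and 135. The part of endothelium in the ROBO4 result was not tested. ROBO3, a receptor of commissural axons, had 0.586 and 1.96 normalized counts at E8, 5.26 and 2.45 at E16, 3.76 and 3.79 at E18 and 22.1 and 18.4 in cornea. Its retinal values were all near the limit of detection.

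NTN1 had the widest difference of the 51 genes between E18 retina and cornea. This founding netrin, which marks the optic nerve head in the retina, had 27.0 and 28.4 normalized counts at E8, 4.20 and 7.35 at E16, 10.02 and 9.84 at E18 and 1267 and 1104 in cornea. All retinal libraries were far below the corneal ones, and the E8 libraries were above the later retina. The difference of E18 retina minus cornea was -6.76 ± 0.33, adjusted p = 3.28e-07, which is 108-fold lower in retina, and that of E16 minus E8 was -2.12 ± 0.33, adjusted p = 0.00055. NTN3, a further DCC and UNC5 ligand, had 2.93 and 3.92 normalized counts at E8, 2.10 and 1.63 at E16, 3.76 and 6.06 at E18 and 142 and 252 in cornea, so all retinal libraries lay far below the corneal ones.

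NTN4 binds laminins of basement membranes and went the opposite way. It had 119.5 and 109.8 normalized counts at E8, 2250.5 and 2511 at E16, 4679.7 and 5283 at E18 and 1077 and 1039 in cornea. Replicates lay close together, each retinal stage was above the one before and cornea lay between E8 and E16. NTN4 rose at E16 relative to E8 (4.36 ± 0.13, adjusted p = 6.25e-08) and at E18 relative to E16 (1.06 ± 0.13, adjusted p = 0.00341), and was higher in E18 retina than in cornea (2.23 ± 0.13, adjusted p = 8.14e-07). The call for E18 relative to E16 was lost without E16 replicate 1 (0.99).

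Netrin-Gs are lipid-anchored relatives that act at synapses and do not bind DCC. NTNG1, whose partner is LRRC4C, had 359 and 448 normalized counts at E8, 1555 and 1653 at E16, 2992 and 3026 at E18 and 323 and 366 in cornea. It rose in both intervals, at 2.00 ± 0.15, adjusted p = 7.46e-06, for E16 minus E8 and 0.91 ± 0.15, adjusted p = 0.00758, for E18 minus E16, and E18 retina lay above cornea (3.13 ± 0.15, adjusted p = 2.90e-07). The call for E18 minus E16 was lost without any 1 of the E16 and E18 retinal libraries, at values of 0.86 to 0.95. NTNG2, whose partner is LRRC4, had 439 and 725 normalized counts at E8, 1428 and 1387 at E16, 1680.2 and 1798 at E18 and 183 and 188 in cornea, and was higher at E16 than at E8 (1.32 ± 0.22, adjusted p = 0.000761) and in E18 retina than in cornea (3.22 ± 0.22, adjusted p = 1.88e-06).

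All 4 UNC5 receptors, which mediate repulsion by netrins, were higher in E18 retina than in cornea, against 34.5% of all genes. UNC5A had 238 and 206 normalized counts at E8, 1289 and 1382 at E16, 1190.3 and 1776 at E18 and 218 and 254 in cornea. The values at E8 and in cornea were alike in range, and the later retina was several times higher (2.59 ± 0.21, adjusted p = 1.22e-05, for E16 minus E8 and 2.62 ± 0.21, adjusted p = 5.48e-06, for E18 retina minus cornea). UNC5C had 209.8 and 218 normalized counts at E8, 632 and 659 at E16, 1139 and 822 at E18 and 55.3 and 87.2 in cornea, with 1.59 ± 0.26, adjusted p = 0.00065, for E16 minus E8 and 3.78 ± 0.26, adjusted p = 1.92e-06, for E18 retina minus cornea. UNC5B, also known from vessels, had 2382 and 2593 normalized counts at E8, 1597 and 1800.0 at E16, 1243 and 1383 at E18 and 823 and 490.1 in cornea. It was the 1 receptor of this family that was lower at E18 than at E8 (-0.92 ± 0.22, adjusted p = 0.00528). UNC5D had 274 and 288 normalized counts at E8, 432 and 357 at E16, 482 and 325 at E18 and 66.4 and 60.2 in cornea. It was not called between retinal stages and was higher in E18 retina than in cornea (2.63 ± 0.24, adjusted p = 1.31e-05).

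NEO1, neogenin, is a DCC relative that binds netrins and RGM proteins. It had 7538 and 11082 normalized counts at E8, 5833 and 6175 at E16, 8938 and 7522 at E18 and 4042 and 5370.5 in cornea. The fall at E16 relative to E8 (-0.61 ± 0.20, adjusted p = 0.0269) became -0.33 with an adjusted p of 0.186 without E8 replicate 2, the higher of the E8 replicates, and lost the call without either E16 library (adjusted p of 0.119 and 0.0827), and the excess in E18 retina over cornea (0.82 ± 0.20, adjusted p = 0.00582) became 0.61 with an adjusted p of 0.0632 without cornea replicate 1. DRAXIN, a secreted repellent first found in chick that binds DCC, had 577 and 657 normalized counts at E8, 1277 and 1543 at E16, 1151 and 1221 at E18 and 253 and 283 in cornea. It was highest at E16 and lowest in cornea, with 1.19 ± 0.16, adjusted p = 0.000192, for E16 minus E8 and 2.15 ± 0.16, adjusted p = 2.96e-06, for E18 retina minus cornea. The lower E18 level of DRAXIN relative to E16 (-0.24 ± 0.16, adjusted p = 0.303) was not called.

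FLRT3, a ligand of UNC5 receptors and latrophilins, had 218 and 274 normalized counts at E8, 1071 and 984 at E16, 797 and 777 at E18 and 697 and 755 in cornea. The E8 libraries lay below all others (2.06 ± 0.16, adjusted p = 9.31e-06, for E16 minus E8), and E18 retina and cornea differed by 0.12 ± 0.16, adjusted p = 0.535. FLRT2, a relative with the same receptors, had 509.7 and 626 normalized counts at E8, 884 and 678 at E16, 846 and 784 at E18 and 1044 and 1004 in cornea. It was called higher at E16 than at E8 (0.45 ± 0.17, adjusted p = 0.0454), and this call was lost in 9 of the alternatives tried. The value was 0.31 without E8 replicate 1 and 0.26 without E16 replicate 1.

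The 4 contactins with a row were all higher in E18 retina than in cornea, and 3 of the 4 rose at E16 relative to E8. Of all genes, 34.5% and 34.1% were called higher in these comparisons. CNTN1, an axonal partner of neurofascin and of CNTNAP1, had 2797 and 4762 normalized counts at E8, 12032 and 10418 at E16, 21939 and 19494 at E18 and 415 and 1682 in cornea. Each retinal stage lay above the one before, though the step between E18 and E16 was not called (0.89 ± 0.53, adjusted p = 0.276), and cornea replicate 2 was well above cornea replicate 1. With only the 4 libraries compared, this step of CNTN1 was called. Its difference of E18 retina minus cornea was 4.63 ± 0.53, adjusted p = 5.71e-05, and 3.62 and 5.64 without cornea replicate 1 or 2. MBP was higher in the same corneal replicate and SOX10 was not, and their part in this difference was not tested. For E16 minus E8 it was 1.62 ± 0.53, adjusted p = 0.026, and 1.23 with an adjusted p of 0.171 without E8 replicate 1, a call also lost without either E16 library (adjusted p of 0.112 and 0.0791).

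CNTN2, known in chick as axonin-1 and present on ganglion cell axons, had 4632 and 3572 normalized counts at E8, 5396 and 4214 at E16, 2501 and 2274 at E18 and 60.9 and 76.2 in cornea. E8 and E16 overlapped, E18 was lower and cornea far lower, with -0.9996 ± 0.19, adjusted p = 0.0107, for E18 minus E16 and 5.11 ± 0.19, adjusted p = 8.02e-08, for E18 retina minus cornea. The first of these calls was lost without E16 replicate 1 or either E18 retinal library, at values of -0.82 to -1.07. CNTN6 had 8.20 and 7.84 normalized counts at E8, 43.1 and 33.5 at E16, 147 and 87.1 at E18 and 40.6 and 46.7 in cornea. It rose in both intervals, at 2.11 ± 0.35, adjusted p = 0.000814, for E16 minus E8 and 1.55 ± 0.35, adjusted p = 0.0209, for E18 minus E16. The second of these calls was lost without either E16 library or E18 replicate 1, at values of 1.18 to 1.72. The excess of CNTN6 over cornea (1.36 ± 0.35, adjusted p = 0.00752) became 0.98 without E18 replicate 1, where its call was lost. CNTN3 had 495 and 388 normalized counts at E8, 2037 and 1594 at E16, 1512 and 1423 at E18 and 780.3 and 683 in cornea, with a rise at E16 relative to E8 (2.04 ± 0.18, adjusted p = 1.68e-05) and an excess in E18 retina over cornea (1.01 ± 0.18, adjusted p = 0.000779).

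The L1 family separated by tissue. NRCAM, an axonal adhesion protein of ganglion cells, had 7408 and 8842 normalized counts at E8, 8674 and 7994 at E16, 13494 and 11689 at E18 and 192 and 458 in cornea. Both E18 libraries lay above all E8 and E16 ones. No difference of NRCAM between retinal stages was called in the fit of all 8 libraries (0.59 ± 0.33, adjusted p = 0.237, for E18 minus E16). With only the 4 libraries compared, E18 was called higher than E16. The difference of E18 retina minus cornea was 5.40 ± 0.33, adjusted p = 1.03e-06, or 4.77 and 6.03 without cornea replicate 1 or 2. NFASC, neurofascin, which gathers channels at the axon initial segment, had 2867 and 2184 normalized counts at E8, 3009 and 3141 at E16, 6448 and 4829 at E18 and 236 and 354 in cornea. It was called only in the later of the retinal intervals (0.86 ± 0.22, adjusted p = 0.0317, for E18 minus E16, and 0.30 ± 0.22, adjusted p = 0.269, not called, for E16 minus E8), and it was higher in E18 retina than in cornea (4.27 ± 0.22, adjusted p = 4.44e-07). The call for E18 minus E16 was lost without any 1 of the E16 and E18 retinal libraries, at values of 0.65 to 1.07. CHL1, the close homolog of L1, had 695 and 921 normalized counts at E8, 2278 and 1934 at E16, 3132 and 2549 at E18 and 13278 and 13400.3 in cornea. It rose in retina at E16 relative to E8 (1.39 ± 0.17, adjusted p = 0.000108) and was the 1 member of the family that was lower in E18 retina than in cornea (-2.24 ± 0.17, adjusted p = 3.23e-06).

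**Figure D4:**
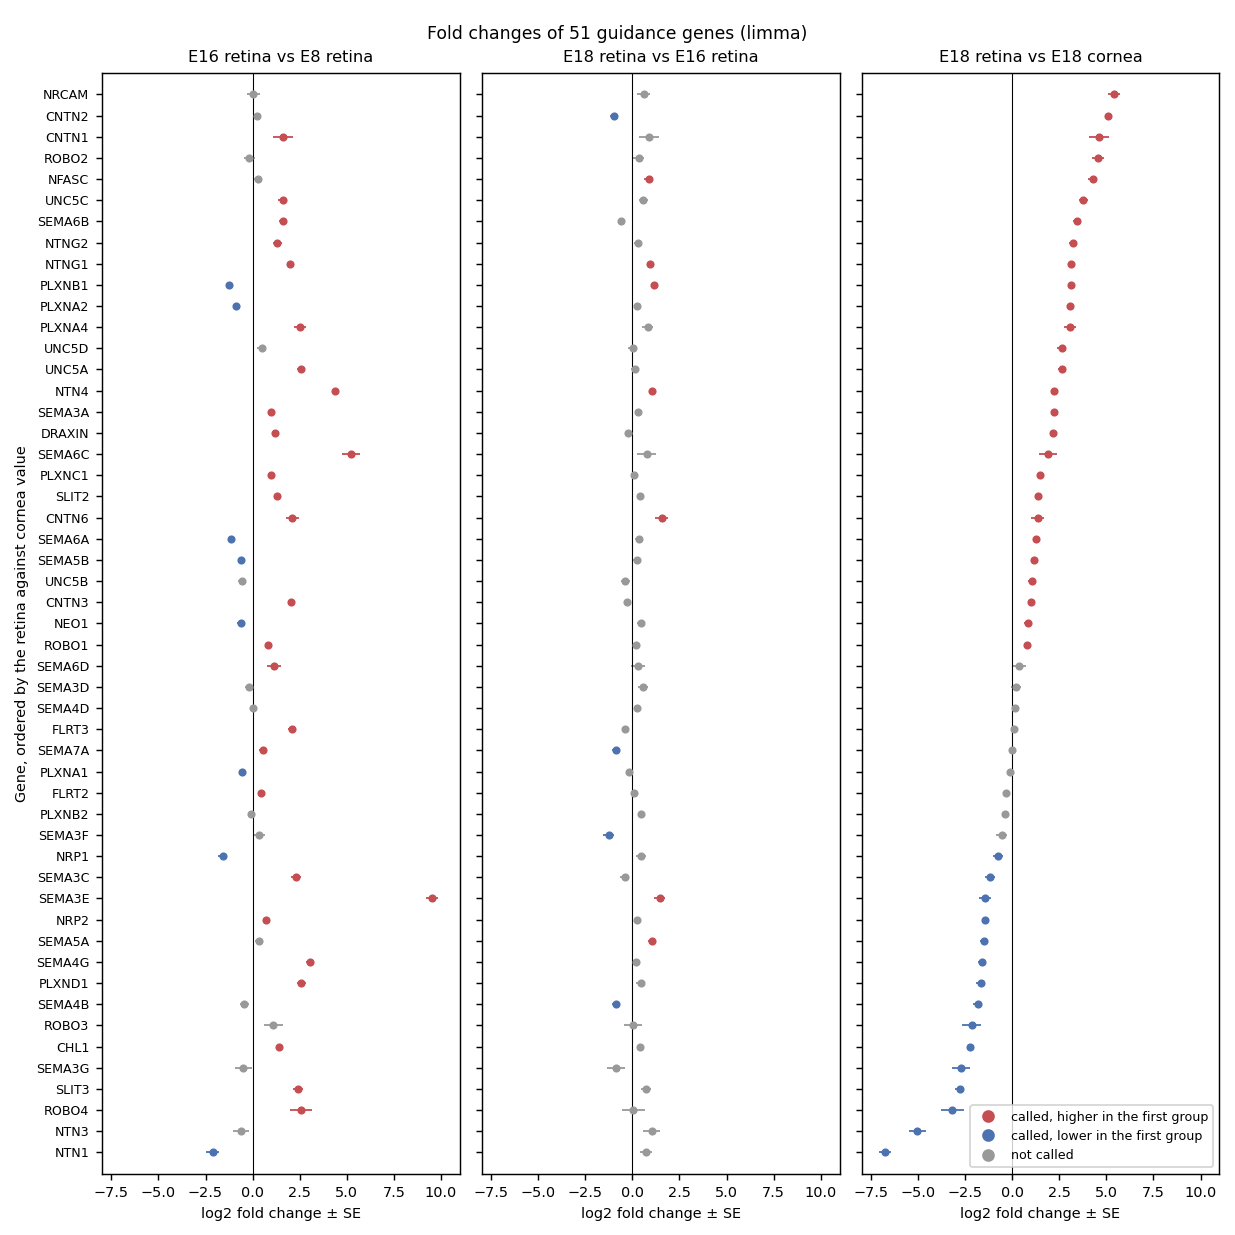
Log2 fold change with its SE for each of the 51 guidance genes, in panels for E16 against E8 retina, E18 against E16 retina and E18 retina against E18 cornea, with colour for higher, lower and not called and genes in the order of the last panel. The values against cornea run from -6.76 for NTN1 to 5.40 for NRCAM, and most intervals between E18 and E16 lie near 0. NTN3 and ROBO3, which passed the filter through cornea alone, are drawn as well.

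By stage, 4 genes (7.84%) rose in both intervals, against 4.17% of all genes tested. Another 23 (45.1%) rose at E16 relative to E8 and were not called between E18 and E16, against 27.6% of all genes, and 7 (13.7%) fell at E16 relative to E8 and were not called later, against 23.8%. NFASC and SEMA5A rose and CNTN2, SEMA3F and SEMA4B fell only in the later of the intervals, as calls of which the difference was not tested. These rises and falls made up 3.92% and 5.88% of the guidance genes, against 2.69% and 2.83% of all genes. PLXNB1 alone (1.96%) fell and then rose, against 3.84% of all genes, and SEMA7A alone (1.96%) rose and then fell, against 2.34%. Genes called in neither interval numbered 10 (19.6%), against 30.1% of all genes. Among them were NRCAM, ROBO2 and UNC5D, which were called against cornea, and NTN3 and ROBO3, which were near the limit of detection in retina. NRCAM was called between E18 and E16 when only the 4 libraries compared were fitted. For E18 retina against cornea, the lower genes included NTN1, SLIT3, SEMA3G, SEMA3E, PLXND1, both neuropilins and CHL1. The higher ones included all UNC5 receptors, the 4 contactins with a row, both netrin-Gs, ROBO1 and ROBO2. Of 5 muscle markers, 4 were also called lower in E18 retina, and MYH11 was not called. TNNT2 had 1.25 and 0 normalized counts in E18 retina against 1479 and 1312 in cornea, and MYL1 had 11.3 and 15.9 against 1358 and 1259. The part of muscle and endothelium in the lower genes was not tested.

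A further list held 18 tested genes for other ligands, co-receptors and membrane partners of these proteins. Of these, 9 rose and 7 fell at E16 relative to E8, 4 rose and none fell at E18 relative to E16, and 11 were higher and 3 lower in E18 retina than in cornea. Over all genes the calls came to 64.4%, 18.6% and 71.4% in these comparisons. CNTNAP1, the partner of CNTN1, had 386 and 592 normalized counts at E8, 4708 and 4901 at E16, 7792 and 7109 at E18 and 291 and 313 in cornea, and was higher in each retinal stage than in the one before. DSCAM, an adhesion protein that spaces neurites, had 6015 and 5327 normalized counts in E18 retina against 49.8 and 71.2 in cornea. LRRC4C, the partner of NTNG1, had 425 and 583 normalized counts at E8, 1949 and 1845 at E16, 1967 and 1966 at E18 and 44.3 and 107 in cornea.

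Another list held 33 tested genes that act inside the cell below these receptors. Between E16 and E8 retina 10 of them rose and 13 fell, between E18 and E16 retina 9 genes rose and 3 fell, and 18 were higher and 10 lower in E18 retina than in cornea, beside the same 64.4%, 18.6% and 71.4% of all genes. RND2, a small GTPase of a group that binds plexins, had 32.8 and 49.0 normalized counts at E8, 571 and 604 at E16 and 248 and 270.3 at E18, so E16 was highest. SRGAP1, which binds Robo receptors, had 6119 and 5002 normalized counts at E8, 2689.8 and 2763 at E16 and 6034 and 5327 at E18, with E16 lowest. DPYSL3, of the family that relays the SEMA3A signal to microtubules, had 6775 and 10394 normalized counts at E8, 12932 and 12077 at E16 and 5515 and 5744 at E18. MICAL1, an enzyme that acts on actin downstream of plexins, had 16.3 and 22.0 normalized counts in E18 retina against 452 and 372 in cornea.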

How the data were processed

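Stranded poly(A) libraries were sequenced. The authors used STAR 2.5.1b and the galGal4 build for alignment, featureCounts 1.5.0 for read counts per gene and DESeq2 1.6.2 for normalization. The annotation release and the use of strand in counting are not given in the sources used here, so overlapping and antisense genes are uncertain. In the deposited table each value is a signal, namely the read count of a gene after division by the size factor of its library. Within 0.001, 100% of the values were whole multiples of 1 read, so whole reads were recovered for the filter and for the count tests. The reads carry no molecular identifiers, and intervals cover counting error only.

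limma 3.58.1 in R 4.3.3 was fitted to log2(normalized count + 1) over all 8 libraries with 1 term per group, eBayes and a mean-variance trend. edgeR's filterByExpr (minimum count 10) left 13194 genes for the tests, and calls had a Benjamini-Hochberg adjusted p under 0.05. Alternatives were pseudocounts of 0.5 and 4, no filter, a filter of at least 50 reads in at least 2 libraries, TMM normalization, edgeR 4.0.16 and DESeq2 1.42.0 on the recovered reads, only the 4 libraries compared, the replicate number as a block, a fold change of at least 2, adjustment over the 11683 genes with a symbol, leaving out the chromosome Z genes and leaving out each library. The code was tested on simulated data. Tables and figures were made with Python 3.11.15, NumPy 2.4.6, SciPy 1.17.1 and matplotlib 3.10.9.

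The families, the further gene lists and the marker lists were chosen with earlier results of these data known. Values in every library were given for the 6 largest rises and falls per comparison among called genes with at least 100 normalized counts in the higher group and no overlap, for the gene of each family with the highest mean normalized count (a choice for display, since lengths were not known) and for genes known for guidance in the retina. Other genes of the families were added for completeness. All 51 symbols matched the GRCg7b annotation, PLXNB1 only as a synonym of PLXNB3. The annotation was used for names and chromosomes only.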

Additional observations from a re-analysis of the deposited data

How the results depend on the processing

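Between E16 and E8 retina, E18 and E8 retina, and E18 retina and cornea, the count of guidance genes called moved by less than 1.5 times under every alternative run. Leaving out 1 library at a time gave 30 to 35, 36 to 39 and 40 to 44 calls for these comparisons. Between E18 and E16 retina, 11 genes were called, and 0 to 14 when 1 library was left out, 28 with only the 4 libraries compared and 6 where at least a 2-fold change was required. The cause of the change with only 4 libraries was not tested. Over all genes tested, the differences between replicates 1 and 2 had correlations of -0.054 to 0.053 between groups. They were not computed for the guidance genes alone and cannot show whether groups share embryos. The replicate block gave 35 calls for E16 against E8, 11 for E18 against E16, 39 for E18 against E8 and 42 for E18 retina against cornea.

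For the 105 gene values followed, 1779 of 1890 alternative values kept their direction and their side of the threshold, 79 lost a call, 25 gained one and 7 changed sign. The sign changes were in values that were not called and came with single libraries left out. They gave ranges of -0.087 to 0.17 for NRCAM and -0.52 to 0.15 for ROBO2 between E16 and E8, -0.12 to 0.26 for FLRT2 and -0.0064 to 0.67 for ROBO2 between E18 and E16, and -0.43 to 0.12 for NEO1 and -0.019 to 0.30 for ROBO2 between E18 and E8. Without E16 replicate 1, NRCAM was at -0.02 between E16 and E8. Depth limits CNTN6, NTN1, NTN3, ROBO3, ROBO4, SEMA3E and SEMA6C, which had under 10 reads in at least 1 retinal library.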
